A study of Mus musculus with 8 samples.

Results

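Expression of 9 genes of the complement system was described in hearts of wild-type (WT) mice and of mice with whole-body TIGAR knockout (TKO). TIGAR is a phosphatase that restrains glycolysis. The 9 genes, out of 16994 in the deposited count table, were taken by symbol: *C1qa*, *C1qb*, and *C1qc* (the chains of C1q), *C4b*, *C3*, *Cfb*, and *Cfp* (components and stabilizer of the enzymes that cleave C3), *C3ar1* (a receptor), and *Serping1* (an inhibitor). All 9 passed the filter on low values. Each genotype contributed 1 library from the left ventricle and 1 each from the infarct, border, and remote zones, so 8 libraries were compared and no group had a replicate. The zones came from male mice in which the left anterior descending coronary artery had been ligated permanently at 16 weeks of age to induce myocardial infarction (MI), and the study examined such mice 4 weeks later. RNA of 3 mice was pooled for each infarct zone library. For the other libraries the number of mice is not given, and neither is whether the left ventricles came from operated mice. WT and TKO mice carried no other stated allele or agent, and the TKO lacks *Tigar* in every cell type rather than in cardiomyocytes alone.

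Complement is a cascade of plasma and tissue proteins that tags dying cells and microbes for removal. C1q and lectins recognize a surface and start cleavage of C4 and C2, an amplification loop runs through factor B and properdin, and both routes meet at C3, whose fragments coat the surface or recruit leukocytes through their receptors. Tissue macrophages are a main source of C1q, fibroblasts secrete several of the other components and inhibitors, and complement deposits in myocardium after ischemic injury.

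Total estimated counts lay between 27429240 and 33799249 per library, and scaling by the trimmed mean of M values (TMM) gave factors of 1.54 and 1.26 for the WT and TKO infarct zone libraries and 0.866 to 0.956 for the other 6. Counts of *Tigar* were 1066 to 2215 in the 4 WT libraries and 51 to 87 in the 4 TKO libraries, as labelled (log2 TKO minus WT -4.44 ± 0.28 (SE); adjusted p = 0.0060, edgeR quasi-likelihood test). Cardiomyocyte markers were present in all libraries, with a summed level of 9220 to 41157 CPM (counts scaled to library size, with TMM factors). The WT left ventricle library stood apart in adipocyte markers, with a summed CPM of 32.4 against 0.541 to 7.30 in the other 7 libraries. The tests against the left ventricle were therefore also run without that library and with the remote zone as reference.

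The 3 C1q chain genes lie side by side on chromosome 4 of GRCm38, all on the minus strand: *C1qb* from 136880129 to 136886187, *C1qc* from 136889804 to 136893065, and *C1qa* from 136895917 to 136898803. *C4b* (34728380 to 34743882) and *Cfb* (34856374 to 34862518) share the major histocompatibility complex region of chromosome 17. *C3* lies elsewhere on that chromosome (57203970 to 57228136). *Serping1* is on chromosome 2 (84765387 to 84775444), *Cfp* on chromosome X (20925454 to 20931555), and *C3ar1* on chromosome 6 (122847138 to 122856161), 4.23 Mb from *Tigar*. Counts of *C4b* are uncertain because of its near-identical copy *C4a*, which was not analysed here, and those of *Cfb* because another annotated gene overlaps it.

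The promoters of *C1qb*, *C1qc*, and *Cfp* are shown because they are the 3 at hand that hold GAGGAA, the core letters bound by PU.1, a transcription factor of myeloid cells. Each window runs from 250 bases before to 50 bases after the RefSeq start site (GRCm38.p6), and it is written 5′ to 3′ on the minus strand, the strand of the gene. Capitals mark GAGGAA on either strand, which appears as TTCCTC where it lies on the other strand.
C1qb: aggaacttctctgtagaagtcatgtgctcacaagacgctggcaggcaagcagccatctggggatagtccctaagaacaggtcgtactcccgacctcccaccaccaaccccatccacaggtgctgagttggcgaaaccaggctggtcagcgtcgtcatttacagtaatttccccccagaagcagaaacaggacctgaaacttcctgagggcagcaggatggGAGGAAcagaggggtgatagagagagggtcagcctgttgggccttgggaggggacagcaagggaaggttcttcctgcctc
C1qc: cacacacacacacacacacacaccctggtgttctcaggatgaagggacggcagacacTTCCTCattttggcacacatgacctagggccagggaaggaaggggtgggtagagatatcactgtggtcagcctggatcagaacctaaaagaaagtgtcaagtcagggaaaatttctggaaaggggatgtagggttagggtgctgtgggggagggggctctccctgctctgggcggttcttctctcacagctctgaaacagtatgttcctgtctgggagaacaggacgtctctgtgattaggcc
Cfp: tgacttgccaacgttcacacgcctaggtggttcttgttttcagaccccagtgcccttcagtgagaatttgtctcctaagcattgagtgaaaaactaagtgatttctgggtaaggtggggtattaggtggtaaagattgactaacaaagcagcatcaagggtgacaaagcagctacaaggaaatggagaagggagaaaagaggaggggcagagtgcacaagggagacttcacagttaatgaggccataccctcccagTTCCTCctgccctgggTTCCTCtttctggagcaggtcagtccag

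The windows lie at chr4:136886151-136886450, chr4:136892865-136893164, and chrX:20931506-20931805. RefSeq promoters were at hand for 5 of the 9 genes, the other two being *C3* and *C3ar1*, and GAGGAA occurred in 3 of these 5. Over all 32851 mouse promoters of this length, 28.3% held it. Counted from the start site to the first base of the match, it lies at -30 in *C1qb* and at -193 in *C1qc*, and *Cfp* has 2 matches, at 6 and 22. The letters of a STAT site (TTCNNNGAA, in 8.3% of promoters) and of an interferon regulatory factor site (GAAA, any 2 bases, GAAA, in 3.44%) were found on either strand in 0 of the 5 windows. An NF-kB-like match (GGG, any 2 bases, TTTCC, in 1.63% of promoters) was found in 1, that of *C3ar1*. The 3 windows shown held none of these other motifs, and a match of letters is not a bound site.

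The infarct zone held more of all 9 transcripts than the left ventricle did. Across both genotypes, 9 of 9 genes rose (adjusted p 0.00018 to 0.00067, edgeR quasi-likelihood test with Benjamini-Hochberg adjustment), where 28.2% of all 12999 genes tested rose. The fitted log2 differences ran from 1.46 for *Cfp* to 3.58 for *C4b*, with a median of 2.15 against 0.02 over all genes. With the remote zone in place of the left ventricle as reference, 9 of 9 again rose (background 24.6%), with a median log2 difference of 1.75. The test uses regions of WT and TKO hearts as replicates of each other, so it bears on regions and not on mice. In bulk tissue, a larger number of cells of a type cannot be told apart from more RNA per cell.

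TKO libraries held less of these transcripts than WT libraries of the same region. In each region 9 of 9 genes had fewer TMM-scaled counts in TKO than in WT, beside shares of all genes of 48.6% (left ventricle), 49.2% (infarct), 50.3% (border), and 52.0% (remote). All 36 ratios of TKO over WT were thus below 1, whereas 13.5% of all genes were below 1 in all 4 regions. The median ratio of the 9 genes, in the order left ventricle, infarct, border, and remote, was 0.755, 0.715, 0.767, and 0.765, beside medians over all genes of 1.01, 1.0, 0.998, and 0.992. At a cutoff of 2-fold, 1 of the 9 was lower in the left ventricle (*C4b*), where 3.62% of genes were, and 0 of 9 in the infarct (1.43%), border (3.26%), and remote (2.39%) zones. Per the series' design each infarcted heart was divided into the 3 zones, so zone libraries of a genotype can share animals, and the genotype test, which takes regions as replicates, bears on regions and not on mice. Tested across the 4 regions, 1 of 9 genes passed the threshold (*Cfb*), beside 0.0615% of genes that were lower in TKO, and 9 of 9 had an unadjusted p under 0.05, beside 16.2% of genes in either direction. The median log2 difference of the 9 was -0.40, against -0.0024 over all genes.

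**Figure D1:**
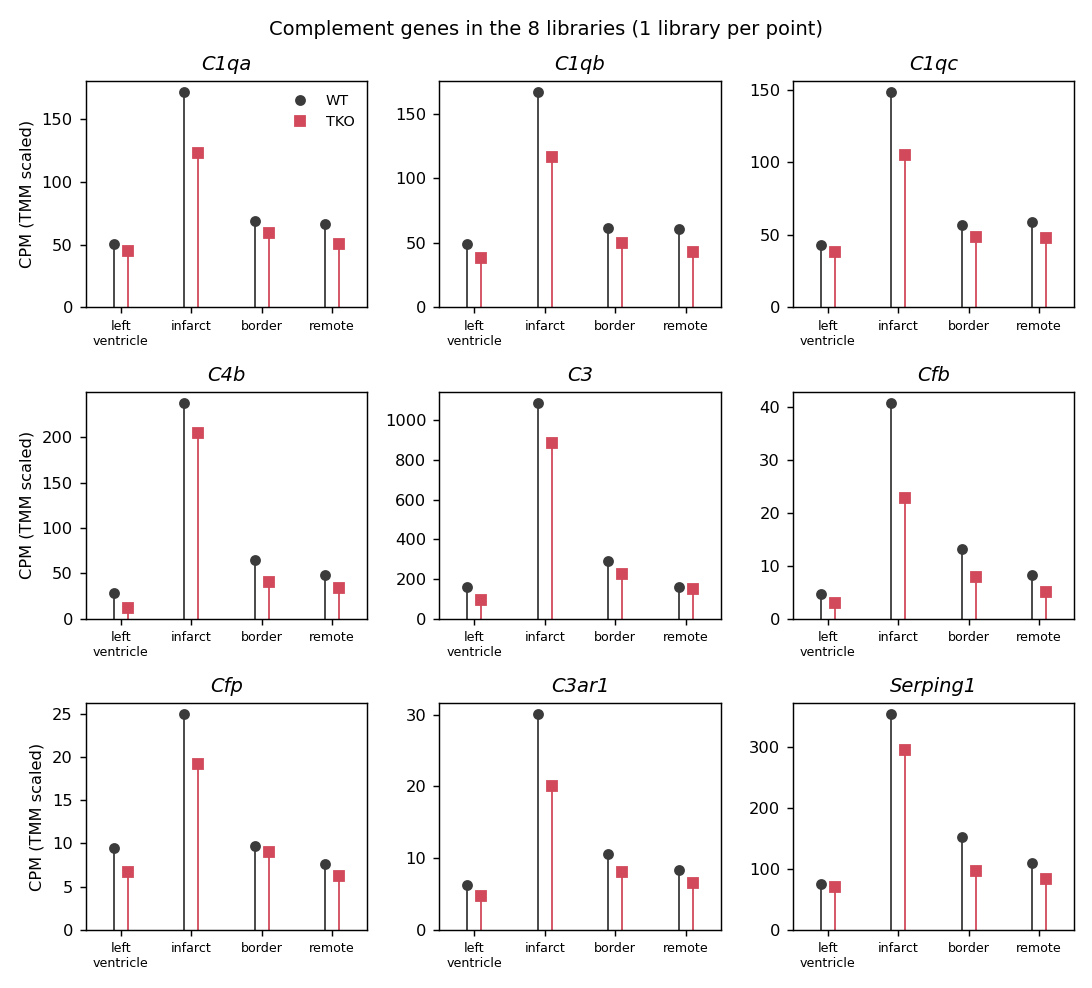
Level of each gene in TMM-scaled CPM (vertical axes, from 0) in the 4 regions (horizontal axes) for WT (circles) and TKO (squares), 1 library per point and no error bar. The infarct zone is highest in every panel, and the TKO point lies below the WT point in all 36 pairs, with the ratio closest to 1 for *Serping1* in the left ventricle (0.942).

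The C1q chains together form the recognition protein of the classical pathway. *C1qa* had 50.3 CPM in the WT and 44.9 in the TKO left ventricle, 172 and 123 in the infarct zone, 69.0 and 59.5 in the border zone, and 66.3 and 50.4 in the remote zone. *C1qb*, in the same order, had 49.2 and 38.5, 167 and 117, 61.4 and 49.7, and 60.9 and 42.7 CPM. *C1qc* had 43.1 and 37.9, 148 and 105, 57.0 and 48.2, and 58.7 and 47.9 CPM. For each chain both infarct zone libraries lay above the other 6, and the levels of the remaining regions overlapped between genotypes. The ratio of *C1qb* to *C1qa* counts stayed between 0.835 and 0.978 in the 8 libraries, and that of *C1qc* to *C1qa* between 0.810 and 0.95. *C1qb* over *C1qa* was lower in TKO than in WT in each region (0.857 against 0.978 for the left ventricle, 0.951 against 0.971 for infarct, 0.835 against 0.889 for border, and 0.847 against 0.918 for remote tissue). In each region, however, the counting intervals of the genotype ratios of *C1qa* and *C1qb* overlapped. The infarct zone level of *C1qa* was 3.41 times that of the left ventricle in WT (exact 95% interval, counting error only, 3.22 to 3.62) and 2.73 times in TKO (2.56 to 2.92).

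The TKO over WT ratio of the C1q chains was lowest in the infarct zone and next lowest in the remote zone. In the infarct zone it was 0.715 (0.688 to 0.742) for *C1qa*, 0.699 (0.673 to 0.727) for *C1qb*, and 0.706 (0.677 to 0.735) for *C1qc*, so the 3 chains were alike within counting error. In the left ventricle the ratios were 0.892 for *C1qa*, 0.782 for *C1qb*, and 0.879 for *C1qc*. Across regions, the log2 difference was -0.42 ± 0.08 (SE) for *C1qb* (adjusted p = 0.155, edgeR), -0.32 ± 0.08 for *C1qa* (adjusted p = 0.202), and -0.31 ± 0.08 for *C1qc* (adjusted p = 0.20). None of the 3 chains passed the threshold. DESeq2's Wald test called *C1qb* (adjusted p = 0.0019) and neither of the other chains. That test called 342 of all 12999 genes across regions (214 of them lower), where edgeR called 18 (8 lower).

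*C3*, the central component that both pathways cleave, was the most abundant of the 9 by count, at 29.6% to 49.5% of their summed counts. Its level was 158 CPM in the WT and 91.3 in the TKO left ventricle, 1087 and 888 in the infarct zone, 291 and 223 in the border zone, and 161 and 147 in the remote zone. The TKO left ventricle was the lowest of the 8 libraries, and both border zone libraries lay above all 4 left ventricle and remote zone libraries. Infarct over left ventricle, the fold of *C3* was 6.86 in WT (6.65 to 7.08) and 9.72 in TKO (9.32 to 10.1). Remote over left ventricle, it was 1.01 in WT (0.973 to 1.06), which this depth cannot tell from no difference, and 1.61 in TKO (1.54 to 1.70). The genotype ratio of *C3* was 0.576 for the left ventricle (0.548 to 0.606), 0.816 for infarct, 0.765 for border, and 0.918 for remote tissue (0.881 to 0.956). The log2 difference between genotypes across regions was -0.40 ± 0.13 (adjusted p = 0.248, edgeR), which did not pass.

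*C4b*, which supplies the C4 part of the classical and lectin pathway C3 convertase, had the highest fitted log2 difference of the 9 between infarct zone and left ventricle (3.58). It had 28.4 CPM in the WT and 11.5 in the TKO left ventricle, 238 and 205 in the infarct zone, 64.2 and 40.7 in the border zone, and 48.0 and 33.6 in the remote zone. The TKO left ventricle was the lowest library, and the ratio of genotypes there was the lowest of the 36, at 0.403 (0.352 to 0.462) from 297 and 779 counts. In the 3 zones after MI the ratio was 0.861 in the infarct, 0.634 in the border, and 0.699 in the remote zone. Against the left ventricle of its own genotype, the infarct zone was 8.36-fold higher in WT (7.78 to 9.01) and 17.8-fold higher in TKO (15.9 to 20.1). The test of whether the genotype difference in the left ventricle departs from that in the 3 zones gave a log2 departure of -0.85 ± 0.22 for *C4b*, with an unadjusted p of 0.0097 and an adjusted p of 0.167 (edgeR). Across regions, *C4b* had a log2 genotype difference of -0.66 ± 0.17 (adjusted p = 0.20) and passed only by DESeq2's Wald test (adjusted p = 0.020).

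*Cfb*, factor B of the alternative pathway, was the 1 gene of the 9 that fell in TKO by the test across regions. It had 4.56 CPM in the WT and 2.86 in the TKO left ventricle, 40.7 and 22.7 in the infarct zone, 13.2 and 7.89 in the border zone, and 8.18 and 5.08 in the remote zone. Each TKO level lay below its WT partner by a similar factor, with ratios of 0.626 for the left ventricle (0.463 to 0.842), 0.557 for infarct (0.512 to 0.606), 0.597 for border (0.506 to 0.703), and 0.621 for remote tissue (0.504 to 0.763). The log2 difference was -0.75 ± 0.08 (SE; adjusted p = 0.043, edgeR quasi-likelihood test). Over 17 alternatives *Cfb* kept its sign in all 17 and passed in 7, with adjusted p from 2.6e-05 to 0.396. It no longer passed when any 1 of the 6 libraries from the 3 zones was left out (log2 difference -0.70 to -0.76), and it passed without either left ventricle library. *Cfb* was also the 1 gene of the 9 that rose in the border zone against the left ventricle, and its infarct zone fold was 8.93 in WT and 7.94 in TKO.

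*Cfp* encodes properdin, a leukocyte product that stabilizes the alternative pathway convertase, and it had the lowest fitted log2 difference of the 9 between infarct zone and left ventricle (1.46). Its level was 9.49 CPM in the WT and 6.64 in the TKO left ventricle, 25 and 19.2 in the infarct zone, 9.67 and 9.03 in the border zone, and 7.66 and 6.21 in the remote zone. The infarct zone stood above the rest, and the other 6 libraries overlapped. The remote zone was at 0.807 of the left ventricle in WT (0.673 to 0.967) and at 0.935 in TKO (0.756 to 1.16), so *Cfp* was the 1 gene of the 9 that was not above the left ventricle there. The genotype ratio was 0.70 for the left ventricle, 0.768 for infarct, 0.934 for border (0.789 to 1.11), and 0.811 for remote tissue. The difference in border tissue was not detectable at this depth, and the log2 difference across regions was -0.32 ± 0.09 (adjusted p = 0.222, edgeR).

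*C3ar1*, the receptor for the anaphylatoxin released from C3, was the least abundant per transcript length in 7 of the 8 libraries. Its level was 6.24 CPM in the WT and 4.71 in the TKO left ventricle, 30.1 and 20.1 in the infarct zone, 10.5 and 8.09 in the border zone, and 8.31 and 6.48 in the remote zone. Both infarct zone libraries again stood apart, and the ratio of genotypes was 0.755 (0.593 to 0.958), 0.667 (0.608 to 0.732), 0.767 (0.646 to 0.909), and 0.779 (0.643 to 0.943) in the left ventricle, infarct, border, and remote zones. The log2 genotype difference across regions was -0.44 ± 0.08 (adjusted p = 0.158, edgeR). *C3ar1* lies on the same chromosome as the deleted gene, and whether sequence flanking the *Tigar* allele plays a part was not tested.

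*Serping1*, the C1 inhibitor that blocks the proteases bound to C1q, was the 1 inhibitor among the 9. It had 74.7 CPM in the WT and 70.4 in the TKO left ventricle, 354 and 294 in the infarct zone, 152 and 95.9 in the border zone, and 109 and 83.2 in the remote zone. The left ventricle libraries of the 2 genotypes were close, with a ratio of 0.942 whose interval held 1 (0.884 to 1.0043), so that difference was not detectable at this depth. The ratio was 0.832 for infarct (0.811 to 0.853), 0.632 for border (0.603 to 0.663), and 0.765 for remote tissue (0.726 to 0.806). Border over left ventricle, the fold of *Serping1* was 2.03 in WT (1.93 to 2.14) and 1.36 in TKO (1.28 to 1.45). The log2 genotype difference across regions was -0.35 ± 0.11 (adjusted p = 0.239, edgeR).

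**Figure D2:**
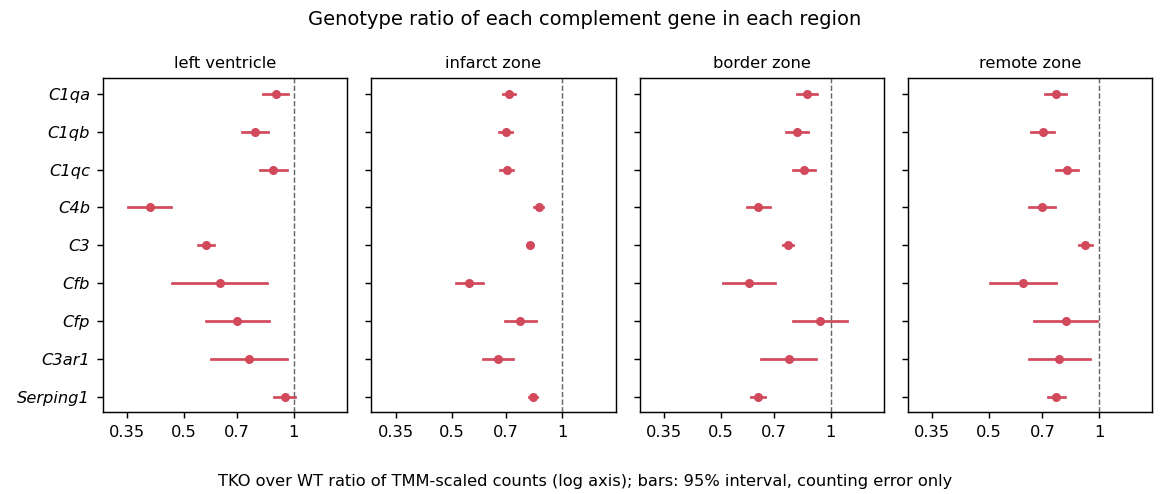
TKO over WT ratio of TMM-scaled counts for each gene (horizontal log axes) in the 4 regions, with points for the ratio of 2 libraries and bars for the exact 95% interval from counting error. All points lie left of the line at 1, and 2 intervals cross it, those of *Serping1* in the left ventricle and *Cfp* in the border zone.

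Per kilobase of exon, the order of the genes changed between the infarct zone and the rest of the heart. *C1qa* had the highest level per kilobase in the 6 libraries outside the infarct zone (43.2 to 66.4 CPM per kilobase). *C3* was highest in both infarct zone libraries, with 211 CPM per kilobase in WT and 173 in TKO, beside 165 and 118 for *C1qa*. *C1qb* and *Serping1* were close to each other there, at 153 and 152 CPM per kilobase in WT, and their order turned in TKO (107 and 127), so these neighbors cannot be ranked. *C4b* was sixth or seventh of the 9 in every library, and *C3ar1* was last except in the TKO left ventricle, where *Cfb* (1.01 CPM per kilobase) lay just under *C3ar1* (1.09). Exon lengths are unions over annotated transcripts, and the isoforms used in these hearts are not known.

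The zones outside the infarct differed less from the left ventricle. In the border zone, 1 of 9 genes rose (*Cfb*, log2 difference 1.5 ± 0.12, adjusted p = 0.030, edgeR), beside 0.669% of all genes that rose, and 8 of 9 had an unadjusted p under 0.05, beside 17.9% of genes. *C3ar1* (log2 0.77, adjusted p = 0.057), *C4b* (1.46, 0.065), and *C3* (1.07, 0.071) came next. The median fold over the left ventricle of the 9 genes was 1.69 in the WT and 1.36 in the TKO border zone, beside 1.0 and 0.991 for all genes. Against the remote zone, 0 of the 9 passed in the border zone by the same test, as did 0.0% of all genes, and 4 had an unadjusted p under 0.05 (beside 3.82%), and *Cfb* had a log2 difference of 0.66. The call for *Cfb* in the border zone was lost without any 1 of the 2 border zone or 2 remote zone libraries.

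In the remote zone, 0 of 9 genes differed from the left ventricle by edgeR's quasi-likelihood test (0.0% of all genes did). By edgeR, an unadjusted p under 0.05 was found for 5 of the 9, beside 10.6% of all genes. DESeq2's Wald test called 2, *C4b* and *Cfb*, but it also called 162 of all 12999 genes, where edgeR called 0. The median fold was 1.33 in WT and 1.26 in TKO, beside 1.01 and 0.987 over all genes, and 8 of 9 genes lay above 1 in each genotype, beside 52.2% of all genes in WT and 47.1% in TKO. *Cfb* had the highest fold of the 9 in WT (1.79) and *C4b* in TKO (2.93, 2.57 to 3.34, beside 1.69 in WT). Without the WT left ventricle library, *C4b* passed by edgeR (log2 difference 1.58). The infarct, border, and remote comparisons share the same left ventricle libraries and are not independent.

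**Figure D3:**
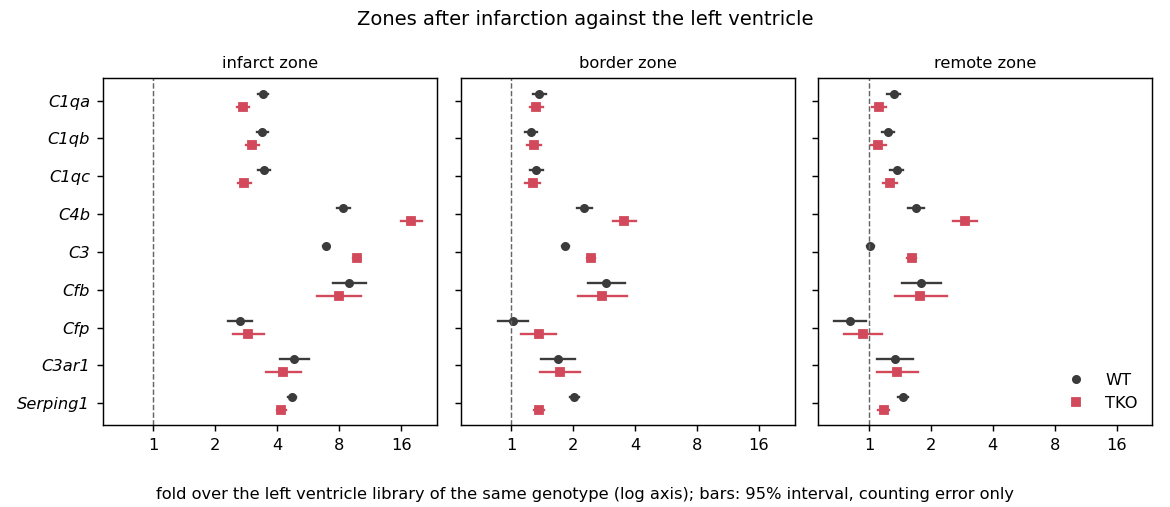
Fold of each zone over the left ventricle library of the same genotype (horizontal log axes) for each gene, with circles for WT, squares for TKO, and bars for the exact 95% interval from counting error. Infarct zone folds run from 2.63 (*Cfp*, WT) to 17.8 (*C4b*, TKO), and the folds of *C3*, *C4b*, and *Cfp* are higher in TKO than in WT in all 3 zones. The left ventricle level in the denominator is lower in TKO than in WT for all 9 genes.

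Whether the genotype difference itself varied between regions was tested with interaction terms. For the infarct zone against the other 3 regions, 0 of 9 genes departed by edgeR, beside 0.0% of all genes upward and 0.00769% downward. At an unadjusted p under 0.05 there were 0 of the 9, beside 7.83% of all genes, and DESeq2 called 0, giving no adjusted p for *Cfp*, *C3ar1*, and *Cfb*. For the left ventricle against the 3 zones, 0 of 9 departed by edgeR, 1 (*C4b*) had an unadjusted p under 0.05, and DESeq2 called 0. Over all genes these shares were 0.223% upward, 0.423% downward, and 16.8% at an unadjusted p under 0.05. The log2 departures of *C4b* and *C3* in the left ventricle were -0.85 and -0.53, and each such term rests on 1 library of each genotype in that region.

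Marker genes of leukocytes were also lower in TKO by their summed levels, though not by the same factor as the complement genes. The summed CPM of 6 pan-leukocyte markers had a genotype ratio of 0.718 for the left ventricle, 0.623 for infarct, 0.636 for border, and 0.677 for remote tissue. In the genotype test, 3 of 5 tested pan-leukocyte markers fell, beside 0.0615% of all genes. They were *Ptprc*, the CD45 antigen (log2 -0.67), *Cd53* (-0.76), and *Coro1a* (-0.76), with adjusted p 0.043 to 0.049 (edgeR quasi-likelihood test). For 10 macrophage markers the ratios of summed CPM were 0.842, 0.771, 0.743, and 0.709. Of the 10, 0 passed and 6 had an unadjusted p under 0.05 (edgeR), beside 16.2% of all genes. For 5 neutrophil markers they were 0.784, 0.520, 0.270, and 0.396, with 0 of 4 tested markers passing. Of these 4, 1 was above 1 in the left ventricle (*Csf3r*, 1.36 from 36 counts in TKO and 28 in WT). The WT summed level ranged from 61.3 to 295 CPM for pan-leukocyte, 324 to 1325 for macrophage, and 3.94 to 55.2 for neutrophil markers, and the TKO level from 44.0 to 184, 273 to 1021, and 3.09 to 28.7. *Tyrobp* was listed at 0 in 5 libraries of both genotypes while other leukocyte genes were not.

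The summed C1q chains were 0.337 to 0.445 of the summed macrophage markers in all 8 libraries, while the C1q sum itself ran from 121 to 487 CPM. The share was 0.440 in the WT and 0.445 in the TKO left ventricle, 0.368 and 0.337 in the infarct zone, 0.367 and 0.414 in the border zone, and 0.398 and 0.426 in the remote zone. TKO was thus above WT in 3 regions and below it in the infarct zone. Over the summed pan-leukocyte markers, the C1q sum ran from 1.65 to 2.76 and was higher in TKO in each region. The values were 2.76 in TKO against 2.33 in WT for the left ventricle, 1.87 against 1.65 for infarct, 2.29 against 1.74 for border, and 2.58 against 2.30 for remote tissue. Most of the macrophage sum was *Lyz2*, lysozyme, at 917 of 1325 CPM in the WT infarct zone and 172 of 324 in the WT left ventricle. The medians of the 10 markers' own genotype ratios were 0.867, 0.767, 0.805, and 0.845, and *Cd163*, a scavenger receptor of resident macrophages, had 0.427, 1.44, 1.51, and 1.09. Taken singly, 3 of the 10 were above 1 in the left ventricle (*Aif1*, *Cd14*, and *Cd68*) and 3 in the remote zone (*Mertk*, *Cd14*, and *Cd163*). In the infarct and border zones 1 of the 10 was above 1, *Cd163* in both. The part that the number of macrophages plays in the genotype difference was not tested.

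Fibroblast markers, 8 genes, rose in the infarct zone (8 of 8 passed, beside 28.2% of all genes that rose). Their genotype ratios of summed CPM were 1.01, 0.859, 0.721, and 0.822 in the same order. *Serping1* stayed at 0.0327 to 0.0414 of the fibroblast sum in the 8 libraries. In the WT left ventricle most of that sum was *Gsn* and *Dcn*, at 1100 and 411 of 1926 CPM. Between genotypes in the left ventricle, 5 of the 8 markers were higher in TKO (median ratio 1.19), while *Serping1* had a ratio of 0.942. *C4b* did not keep a fixed share and ran from 0.00590 (TKO left ventricle) to 0.0227 (both infarct zone libraries). The summed cardiomyocyte markers moved the other way, with ratios of 1.05, 2.05, 1.21, and 1.13. The list was mixed in the left ventricle, where 3 of the 8 were below 1 (*Myh6* 0.666, *Ryr2* 0.759, and *Actn2* 0.923). In the remote zone 1 was (*Myl3*, 0.981). In the genotype test (edgeR) 0 of 8 passed and 0 had an unadjusted p under 0.05, beside 16.2% of all genes. In the infarct zone the TKO library thus held more cardiomyocyte RNA relative to the rest, and the part this plays in the lower complement levels there was not tested. The mesothelial sum also had ratios below 1 in each region (0.463, 0.671, 0.838, and 0.543), from summed levels of 5.64 to 78.1 CPM. By single gene, 4 of the 6 mesothelial markers were above 1 in the border zone (median 1.34) and 2 of 6 in the left ventricle. The adipocyte sum had ratios of 0.0167, 0.613, 0.590, and 1.01, and the part that fat tissue plays in the complement levels was not tested. Without both left ventricle libraries, 9 of 9 complement genes were lower in TKO in the remaining 3 zones (background 26.3%). That count follows from the ratios of each region given above and is no separate test. Endothelial markers had ratios of 1.02, 1.21, 0.976, and 1.12, and interferon-stimulated genes 1.10, 0.887, 0.906, and 0.976.

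**Figure D4:**
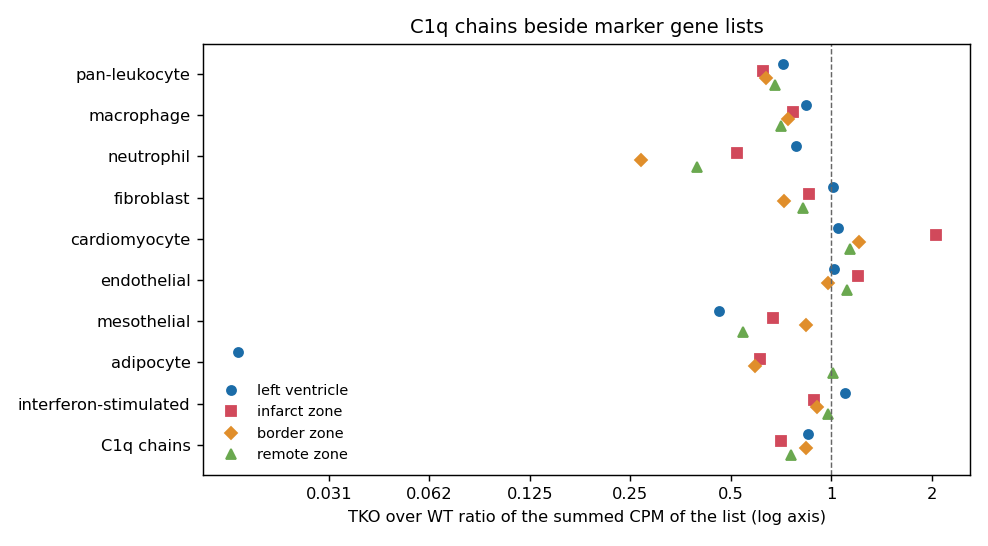
TKO over WT ratio of the summed CPM of each marker list (horizontal log axis) in the 4 regions, 1 ratio of 2 libraries per point, with the summed C1q chains in the last line. The C1q, macrophage, pan-leukocyte, neutrophil, and mesothelial points lie below 1 in all 4 regions, the cardiomyocyte points above 1, and the adipocyte point of the left ventricle at 0.0167.

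The other genes of the pathway were read from a list of 54 complement genes, of which 48 are in the table and 36 passed the filter. Beside the 9, that left 27 tested genes. In the infarct zone against the left ventricle, 13 of the 27 rose and 3 fell (edgeR), beside 3670 and 3715 of all 12999 genes. The 13 include *Hc* and *Masp1*, which reached the filter only with the infarct zone libraries. In the genotype test 0 of 27 passed, beside 18 of the 12999 genes. An unadjusted p under 0.05 (edgeR) was found for 10, beside 16.2% of all genes. Of the 27, 20 were below 0, with a median log2 difference of -0.25 against -0.0024 over all genes. *Itgb2*, the shared beta chain of complement receptors 3 and 4, came closest (log2 -0.65 ± 0.08, adjusted p = 0.083). The largest genotype differences by size were those of *Cfd*, factor D, an adipocyte product (-1.70 ± 0.91, adjusted p = 0.387), and *Itgax*, the alpha chain of complement receptor 4 (-1.20 ± 0.23, adjusted p = 0.158). *Cfd* had 1144 counts in the WT and 17 in the TKO left ventricle, the same library pair in which the adipocyte markers differed.

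By role, 4 of the 6 tested initiation genes other than the C1q chains rose in the infarct zone, where 28.2% of all genes rose. Of these, *C1ra* (log2 2.44) and *C1s1* (2.13) form the C1 complex with C1q. The others were the scavenger receptor *Colec12* (1.53) and *Masp1* (1.35) of the lectin pathway. *Masp1* lay at 0.425 to 1.04 CPM outside the infarct zone and reached the filter only with the infarct zone libraries, which favors a rise. *C2*, the partner of C4 in the convertase, rose by 3.23 on the log2 scale. Thus 5 of the 6 tested convertase genes rose, beside the same 28.2%, but *C3*, *C4b*, *Cfb*, and *Cfp* among them were already counted above. *Cfd* was the sixth (-0.93, adjusted p = 0.525, edgeR). Of the 3 tested terminal components, *C7* rose (1.79) and so did *Hc*, which encodes C5. *Hc* had 1 and 2 counts in the WT and TKO left ventricle and 218 and 395 in the infarct zone. Outside the infarct zone *Hc* had at most 0.723 CPM. It passed the filter only through the infarct zone libraries, so its rise was largely fixed by the filter. The fold of *Hc* was 141 in WT (25.1 to 5603) and 143 in TKO (39.3 to 1186), an interval set by the few counts of the left ventricle. Among receptors, *Itgax* (4.19), *Itgb2* (2.61), *Itgam* (2.35), and *C5ar1* (1.64) rose, while *C1qbp*, a mitochondrial protein first found as a C1q binder, fell by 1.24. Inhibitors divided: *Cd55* (1.66), which speeds the decay of convertases, rose with *Serping1*, whereas *Cd59a*, which blocks the membrane attack complex, fell by 1.17 and *Vtn*, vitronectin, by 1.03. In the border zone, 2 of the 27 rose, beside 0.669% of all genes. They were *C1s1* (0.70, adjusted p = 0.048, edgeR) and *Itgb2* (0.88, adjusted p = 0.044).

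**Figure D5:**
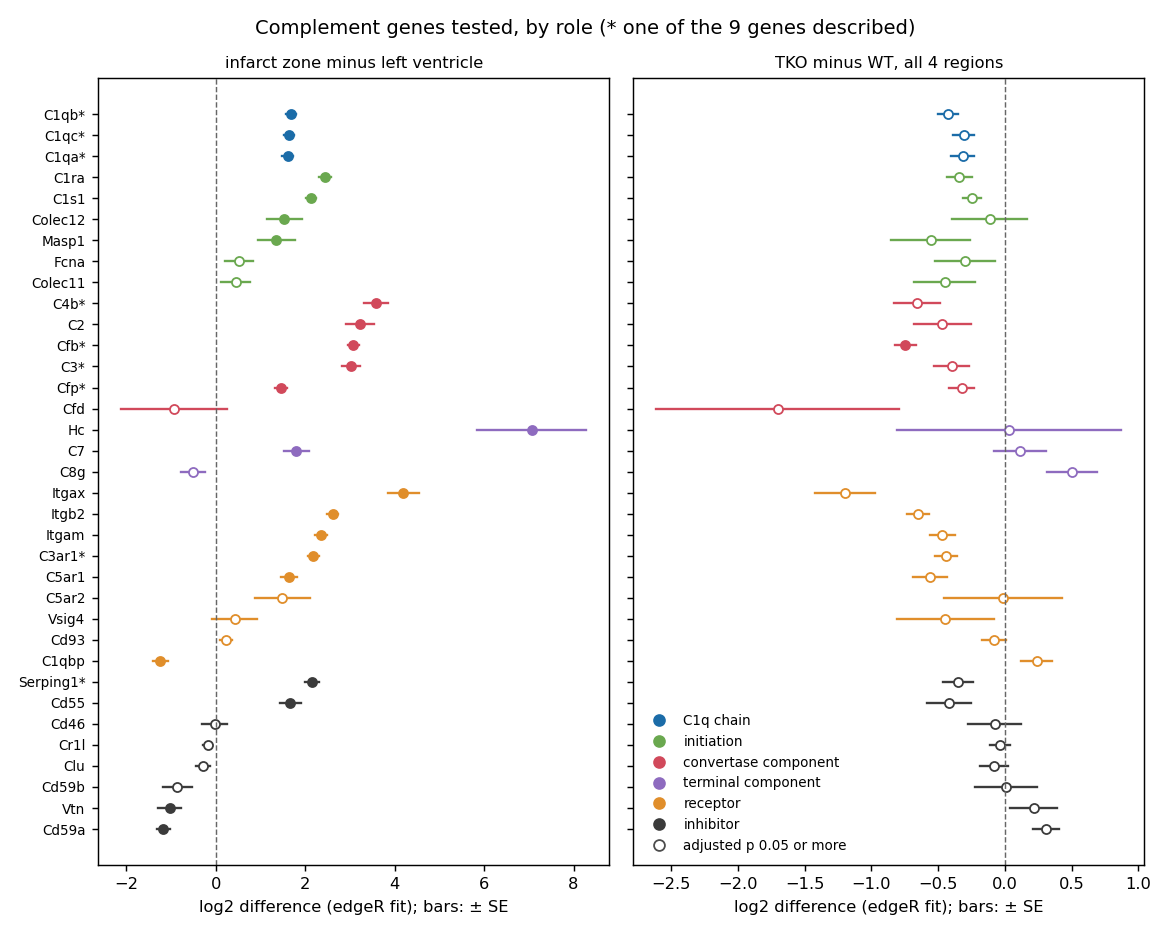
Fitted log2 differences (horizontal axes) of 35 of the 36 tested complement genes by role, for the infarct zone minus the left ventricle and for TKO minus WT, with bars of 1 SE and filled points for an adjusted p under 0.05. In the first panel 21 of these genes rose and 3 fell, beside 3670 and 3715 of all 12999 genes. In the second *Cfb* is the only filled point, with 28 of 35 estimates below 0.

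Across the 8 libraries the levels of the 9 genes ran nearly in parallel, with both infarct zone libraries highest for each gene. Pearson's r of log2(CPM + 1) between pairs of the 9 lay between 0.906 (*C4b* and *Cfp*) and 0.995 (*C1qa* with each of the other chains), over 8 libraries that share regions and scaling. Of the 8249 genes whose mean CPM reached 10, those most like *C1qa* were *Mpp1*, *Sod3*, *Glis2*, *Cybb*, and *Sgce* (r from 0.997 to 0.998). Those most like *C3* were *Aebp1*, *Tle3*, *Zscan29*, *Lrp1*, and *Osmr* (r from 0.994 to 0.996). Those most like *C4b* were *Cebpd*, *Pkd1*, *Ephx1*, *Ksr1*, and *Mrc1* (r from 0.993 to 0.996), and those most like *Serping1* included *Olfml3*, *Naalad2*, *Eln*, and *Timp2* (r from 0.997 to 0.998).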

How the data were processed

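RNA of 8 mouse heart libraries, 1 per genotype and region, was sequenced. Per the labels and the study's methods, the authors trimmed reads with Trim Galore 0.6.5, quantified transcripts with kallisto 0.46 against the mm10 transcriptome, and collapsed transcripts into genes with tximport. The values deposited are estimated counts per gene as whole numbers, without normalization, so they were used as they stand. Kallisto divides reads among transcripts that share sequence, which makes near-identical or overlapping genes uncertain.

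The 12999 genes whose mean CPM reached 1 were fitted in R 4.3.3 with edgeR 4.0.16 (TMM, glmQLFit, glmQLFTest, region and genotype as terms, all 8 libraries) and Benjamini-Hochberg adjustment at 0.05. DESeq2 1.42.0, other scalings, filters, and left-out libraries were the alternatives. SE is the size of the log2 difference divided by the square root of F. Ratios of 2 libraries have exact Clopper-Pearson 95% intervals, which cover counting error only, and 2-fold counts use a prior count of 2. A count of 3 or fewer was taken as the floor. Levels across genes were divided by GENCODE exon length on GRCm38. The scripts were tested on simulated data. Tables and figures used Python 3.11.15, pandas 2.3.3, numpy 2.4.6, scipy 1.17.1, and matplotlib 3.10.9.

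The 9 genes, the pathway list, and the marker lists were chosen with earlier results of these data known. All 9 were named; of the other complement genes, those past the threshold in the genotype or infarct test and the 3 with the largest genotype difference. *C8g* and *Colec11* were named after their values were seen. Of the pathway list, 6 genes (*Mbl1*, *Mbl2*, *Fcnb*, *C4a*, *C9*, and *C4bp*) were not analysed here. Of the genes that the naming rule covers, 1 is not reported here.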

Additional observations from a re-analysis of the deposited data

How the results depend on the processing

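The direction of all 9 genes between genotypes, and their rise in the infarct zone, were kept under every scaling, filter, tool, and left-out library tried (17 and 13 alternatives). The number of genes called between genotypes (1) was 3 by DESeq2's Wald test, 0 without a filter on low counts, 0 without both infarct zone, both border zone, or both remote zone libraries, and 0 to 1 when 1 library was left out. For the infarct zone against the left ventricle, the median log2 difference (2.15) was 2.83 with total counts, which moved the median of all genes to 0.71 and left the 9 genes 2.12 above it. It was 1.75 with the remote zone as reference and 1.98 to 2.21 when 1 library was left out, lowest without the WT left ventricle. For genotype, total counts moved the median of all genes to -0.11, and the 9 genes lay at -0.40 relative to it. The border zone count (1) was 3 with total counts, 5 by DESeq2, 2 with at least 10 counts in every library, 0 against the remote zone, and 0 to 3 when 1 library was left out. The border zone median (0.74) was 0.35 against the remote zone and 0.52 to 0.79 with 1 library left out, and *C1qc* then turned from 0.37 to -0.017 against the remote zone. The remote zone count (0) was 2 by DESeq2 and 0 to 1 with 1 library left out. Over all 12999 genes DESeq2 also called more than edgeR did. It called 342 against 18 for genotype, 576 against 93 for the border zone, and 162 against 0 for the remote zone. With total counts, the infarct zone genotype ratio (0.715) had a median of 0.583, and 1 gene (*Cfb*) was at least 2-fold lower. The remote zone reference was chosen after seeing the data, and so was the count without both left ventricle libraries. The cause of these changes was not tested. The genotype test matched the WT and TKO libraries of a region through its region term. No analysis paired by animal was possible because each group has 1 library and the labels carry no replicate numbers. Genes with few counts (*Cfb*, *C3ar1*, and *Cfp* in the left ventricle) have the widest counting intervals.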

Other observations

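Among the other complement genes, 2 collectins had a genotype difference in the left ventricle that departed from the 3 zones after MI by edgeR's quasi-likelihood test. *Colec11*, a soluble lectin that can start the lectin pathway, departed by -1.30 ± 0.16 on the log2 scale (SE; adjusted p = 0.046), with 142 counts in the TKO and 412 in the WT left ventricle. *Colec12*, a membrane scavenger receptor of the same family, departed by 1.59 ± 0.16 (adjusted p = 0.037), with 657 and 322 counts. Both rest on 1 library of each genotype in that region, and the WT left ventricle library is the one that held adipocyte markers. *C7*, a terminal component, had 21.1 CPM in the WT and 30.7 in the TKO infarct zone and 9.90 and 14.1 in the border zone. The 3 tested terminal components (*C7*, *C8g*, and *Hc*) had TKO over WT ratios above 1 in both zones. They ran from 1.46 to 2.14 in the infarct zone and from 1.41 to 1.48 in the border zone. *Hc* gave the top of both ranges and reached the filter only with the infarct zone libraries. Its border zone interval held 1 (0.510 to 4.59), from 7 counts in WT and 10 in TKO. In the remote zone 2 of the 3 were below 1 (*C7* at 0.910, and *Hc* from 22 counts in WT and 1 in TKO), as was *C7* in the left ventricle (0.672). By the genotype test, 0 of them passed (edgeR, 1 with an unadjusted p under 0.05).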
